A study of Mus musculus with 8 samples.

Results

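The genes described here are the cytochrome P450 genes of families 1, 2 and 4 in mouse liver. They were chosen by name, as the genes of the count table whose symbol is Cyp followed by the family number 1, 2 or 4, a subfamily letter, a gene number and at most 1 more letter, without pseudogenes, and with a mean of 0.5 CPM (counts of a gene after every library is brought to the same total) or more over the 8 libraries. Of the 33212 genes in the table, 67 had such a symbol and 53 of these reached the floor. The members just above the floor were Cyp2s1 with a mean of 0.745 CPM, Cyp2b10 with 0.908 CPM and Cyp2j9 with 0.919 CPM, and those just below it were Cyp4f39 with 0.162 CPM, Cyp2t4 with 0.107 CPM and Cyp2c65 with 0.0722 CPM. The 53 members are 3 genes of family 1 (2 Cyp1a and 1 Cyp1b), 36 of family 2 (13 Cyp2c, 7 Cyp2d, 4 Cyp2a, 3 Cyp2b, 3 Cyp2j and 1 each of Cyp2e, 2f, 2g, 2r, 2s and 2u) and 14 of family 4 (6 Cyp4a, 6 Cyp4f, 1 Cyp4b and 1 Cyp4v).

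The study sequenced liver RNA of male C57BL/6 mice fed for 8 weeks a diet without methionine and choline (MCD diet), a model of fatty liver damage. The 4 Nnmt KO mice were Alb-Cre::Nnmt flox/flox, in which the albumin promoter drives Cre in hepatocytes, so that other liver cells keep the gene. The 4 control mice are labelled WT and are described elsewhere in the study as Nnmt flox/flox, with no further allele named. Ages of these mice are not given in the sources used here. Nnmt encodes nicotinamide N-methyltransferase, and the comparison asks how its loss from hepatocytes bears on gene expression in the damaged liver. Total counts were between 75020072 and 87934362 in Nnmt KO libraries and between 79043675 and 87056991 in control libraries, which puts 3 counts at no more than 0.0400 CPM. Libraries are lettered a to d in the order of their columns within each genotype, since mouse numbers are missing there.

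P450 enzymes are heme proteins, most of them in the endoplasmic reticulum, which insert an oxygen atom into their substrates with electrons passed on by P450 oxidoreductase. Enzymes of family 1 oxidize flat aromatic compounds and are induced through the aryl hydrocarbon receptor (AHR), those of family 2 act on drugs, solvents, steroids and fatty acids, and those of family 4 hydroxylate fatty acids near the end of the chain. Several are induced through the receptors CAR, PXR or PPARA, many differ between male and female mouse liver, and most lie in clusters of closely similar genes.

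Nnmt itself, the targeted gene, was at 31.8, 44.8, 68.9 and 83.0 CPM in KO libraries a, b, c and d and at 112, 224, 134 and 84.9 CPM in control libraries a, b, c and d. Every KO value was below every control value, with library d the closest in both groups. The CPM values here and below are scaled by edgeR's TMM factors. Hepatocyte markers were abundant in all 8 libraries, with the 7 genes of that list (Alb, Apoa1, Ttr, Tat, Serpina1c, Hnf4a and Cps1) adding up to 62246, 97242, 111282 and 107953 CPM in KO libraries a to d and to 97722, 111703, 73383 and 87508 CPM in control libraries a to d.

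KO library a stood apart from the other libraries in a way that touches most members. Its TMM factor was 1.21, against 0.952 to 0.977 in the other 3 KO libraries, and its hepatocyte marker sum was the lowest of all 8 libraries. The members took 1.69% of all counts in KO library a, 2.29% to 2.50% in the other KO libraries and 2.20% to 2.99% in control libraries. Within the KO group, KO library a had the lowest CPM for 41 of the 53 members (77.4%), against 33.2% of all tested genes. The 5 cholangiocyte markers, led by Spp1, added up to 278, 101, 88.8 and 177 CPM in KO libraries a to d and 49.8, 61.5, 167 and 89.2 CPM in control libraries a to d. For the 6 stellate cell markers, of which Reln was the most abundant, the sums were 511, 264, 219 and 212 CPM and 167, 204, 285 and 288 CPM in the same order, and for the 5 of 6 macrophage markers found in the table, led by Gpnmb, they were 703, 338, 325 and 289.8 CPM and 312, 273, 418 and 825 CPM. KO library a was thus the highest of the KO group in all 3 of these sums, while control library d was highest in its group for the macrophage and stellate markers. In whole liver, fewer hepatocytes and less P450 RNA per hepatocyte cannot be told apart. The part of these cell type markers in the results below was not tested. Counts over all members are given also without KO library a, while those of subfamilies, gene lists, neighbours and stretches of chromosomes are for all 8 libraries unless stated.

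The families did not shift in 1 direction. Over the 53 members, all of which had enough counts to be tested, the median log2 fold change was 0.05 (Nnmt KO over control), beside 0.02 over the 15291 tested genes. Of the members, 30 had a fold change above 0 and 23 below it. At an adjusted p under 0.05 in edgeR's quasi-likelihood test, 1 member, Cyp4a12b, was called, where 0.32% of all tested genes were called. At an unadjusted p under 0.05 in the same test, 9 of 53 members (17.0%) were higher in Nnmt KO, against 5.45% of all tested genes, and 5 members (9.43%) were lower, against 7.13%. In either direction this was 26.4% of members beside 12.6% of all tested genes. The higher members were Cyp1b1, Cyp2c39, Cyp2c54, Cyp2c67, Cyp2c69, Cyp2s1, Cyp4a10, Cyp4a12a and Cyp4a12b, and the lower ones Cyp1a1, Cyp2d40, Cyp2e1, Cyp2r1 and Cyp2u1. Libraries did not overlap between genotypes for 2 members that were higher (Cyp2c39 and Cyp4a12b, 3.77% of members against 3.34% of all tested genes) and 2 that were lower (Cyp1a1 and Cyp2r1, against 4.81%), shares close to the background.

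Without KO library a, edgeR called 5 members at an adjusted p under 0.05 (Cyp2c37, Cyp2c39, Cyp2c69, Cyp4a10 and Cyp4a12b, the first chosen after its values were seen), where 0.963% of all genes were called. At an unadjusted p under 0.05 that fit had 16 members higher and 4 lower, beside 13.3% of all genes in either direction. Of the 14 above it kept 11 and lost Cyp1b1, Cyp2s1 and Cyp2u1. Without control library d, 2 members were called at an adjusted p under 0.05, Cyp4a12a and Cyp4a12b, beside 0.142% of all genes. Leaving out any other single library left 0 members at an adjusted p under 0.05 by edgeR, with 9 to 16 at an unadjusted p under 0.05, where 8.08% to 14.1% of all genes were. Higher and lower members were 6 and 6 without KO library b, 6 and 6 without KO library c, and 5 and 4 without KO library d. Without control libraries a, b, c and d they were 9 and 3, 13 and 3, 5 and 9, and 6 and 7. More members were thus lower than higher without control library c or d. The 7 members under an unadjusted p of 0.05 in edgeR whichever library was left out were Cyp1a1, Cyp2c39, Cyp2c69, Cyp2d40, Cyp2r1, Cyp4a12a and Cyp4a12b. DESeq2 on all 8 libraries called 3 members (Cyp2c39, Cyp2c69 and Cyp4a12b) after adjustment, against 3.32% of all genes, a larger background than edgeR's.

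**Figure D1:**
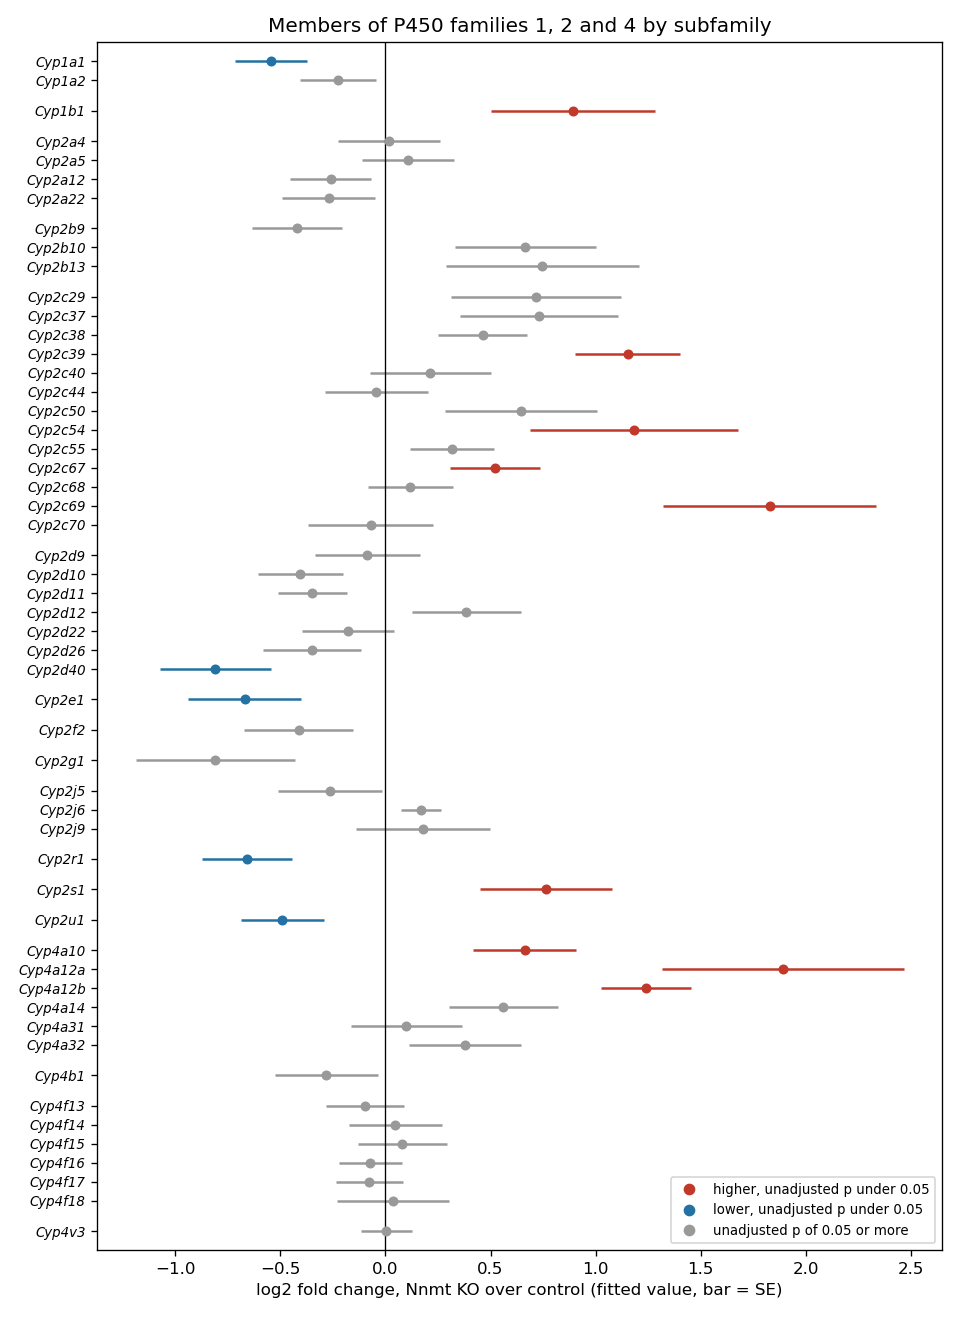
The fitted log2 fold change of each of the 53 members (Nnmt KO over control, 4 libraries each) is plotted by subfamily, with the standard error as a bar and colours for the direction at an unadjusted p under 0.05. Cyp4a and most Cyp2c genes lie right of 0, up to 1.89 for Cyp4a12a, while 6 of 7 Cyp2d genes and Cyp2e1 at -0.67 lie left of it.

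Members spread over a wide range of levels. On the TPM scale, which corrects for transcript length and allows levels to be compared between genes, Cyp2e1 had the highest level in control livers with a mean of 13261 TPM, followed by Cyp2d26 with 2583, Cyp2a4 with 2286, Cyp4a14 with 2078, Cyp2a5 with 1372 and Cyp2d10 with 1224 TPM. In Nnmt KO livers the order began with Cyp2e1 at 8670.1, Cyp4a14 at 3145, Cyp2a4 at 2413 and Cyp2d26 at 2117 TPM. The summed level of all members was 13986, 24452, 26263 and 23956 CPM in KO libraries a, b, c and d and 28902, 34118, 21038 and 20898 CPM in control libraries. These sums overlapped between genotypes, with a mean in Nnmt KO at 84.5% of control, or 94.9% without KO library a. For the members other than Cyp2e1 this share was 104%, or 116% without KO library a. Members also varied more between mice of a genotype than other genes did. Their median SD of log2 CPM within a genotype was 0.41, against 0.27 for all tested genes, and 0.31 against 0.24 without KO library a. Cyp4a12a had the widest spread within a genotype, with an SD of 1.02, and Cyp2j6 the narrowest with 0.09.

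The Cyp4a genes, whose enzymes hydroxylate the terminal carbon of fatty acids and which are classic PPARA targets, include the largest fold change of all members with all 8 libraries, that of Cyp4a12a. Without KO library a or b, or control library a, b or c, the fold change of Cyp2c69 was larger. All 6 Cyp4a genes had a fold change above 0, with a median of 0.61. Cyp4a31 turned to -0.026 without KO library b and to -0.027 without control library d. At an unadjusted p under 0.05 by edgeR, 3 were higher (Cyp4a10, Cyp4a12a and Cyp4a12b), beside 5.45% of all tested genes. Without KO library a or control library b, Cyp4a14 and Cyp4a32 also passed. Without KO library b or d or control library c, only Cyp4a12a and Cyp4a12b did. Cyp4a12b (ENSMUSG00000078597, chromosome 4, 115411624 to 115439034, plus strand in GENCODE's annotation of GRCm38) was at 23.9, 32.1, 35.9 and 39.0 CPM in KO libraries a to d and 9.09, 14.4, 13.0 and 18.9 CPM in control libraries a to d. All 4 KO libraries were above all 4 control libraries, with KO library a the lowest KO value and control library d the highest control value. The mean was 32.7 ± 6.49 CPM in Nnmt KO and 13.9 ± 4.06 CPM in control (SD, n = 4 each) and the log2 fold change 1.24 (standard error, SE, of 0.21, adjusted p = 0.0496 by edgeR). This adjusted p ran from 2.08e-05 to 0.159 over the 12 alternative analyses by edgeR and DESeq2 and was under 0.05 in 3 of them, while the fold change stayed between 1.10 and 1.42 with each library left out in turn.

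Its neighbour Cyp4a12a (ENSMUSG00000066071, chromosome 4, 115299046 to 115332815, plus strand), the main arachidonic acid hydroxylase of this group in male mice, was at 62.5, 133, 122 and 132 CPM in KO libraries a to d and 9.10, 19.9, 14.0 and 78.3 CPM in control libraries a to d. KO library a was far below the other KO libraries and control library d far above the other controls, so that these 2 mice crossed. The log2 fold change was 1.89 (edgeR, SE 0.57, unadjusted p = 0.00700, adjusted p = 0.193). Without control library d it was 2.97 with an adjusted p of 0.0153 by edgeR (range over alternatives 0.0153 to 0.455).

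Cyp4a10, a fatty acid ω-hydroxylase gene, was at 213, 512, 412 and 490.1 CPM in KO libraries and 296, 278, 194 and 260.1 CPM in control libraries, in the order a to d. KO libraries b, c and d were all above every control, and KO library a lay within the control range. The log2 fold change was 0.66 (unadjusted p = 0.0209, adjusted p = 0.292 by edgeR), and 0.87 without KO library a. Cyp4a14, the most abundant Cyp4a gene, ran from 1784 CPM in KO library a to 4280.1 CPM in KO library b, against 1952 to 2977 CPM in control mice. Again KO libraries b, c and d were above all controls and KO library a was below them, and edgeR's unadjusted p was 0.0525 for a log2 fold change of 0.56. Cyp4a31 and Cyp4a32 had log2 fold changes of 0.10 and 0.38, neither at an unadjusted p under 0.05 by edgeR with all 8 libraries. Summed over the subfamily, KO livers had 4249 ± 1375 CPM and control livers 2876 ± 575 CPM (SD, n = 4 each).

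Other family 4 genes showed no such difference. The 6 Cyp4f genes, which act on leukotrienes and other fatty acid derivatives, had log2 fold changes from -0.10 for Cyp4f13 to 0.08 for Cyp4f15, and none had an unadjusted p under 0.05 by edgeR. Their median was -0.02 and turned to 0.04 when libraries were scaled by size only. Cyp4f15, the most abundant of them by CPM, was at 55.6, 106, 110.2 and 101 CPM in KO libraries and 93.1, 110.2, 79.0 and 71.1 CPM in control libraries. KO library a was the lowest value of the 8, and the other KO values lay within or near the control range. Cyp4f18, an enzyme gene of neutrophils and other leukocytes, was at 6.44 CPM in KO library a and at 2.69 to 4.33 CPM elsewhere. Cyp4v3, which hydroxylates medium-chain fatty acids, stayed level with a log2 fold change of 0.00 (SE 0.12), and Cyp4b1, a lung-type fatty acid hydroxylase gene, was at -0.28 (SE 0.24).

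**Figure D2:**
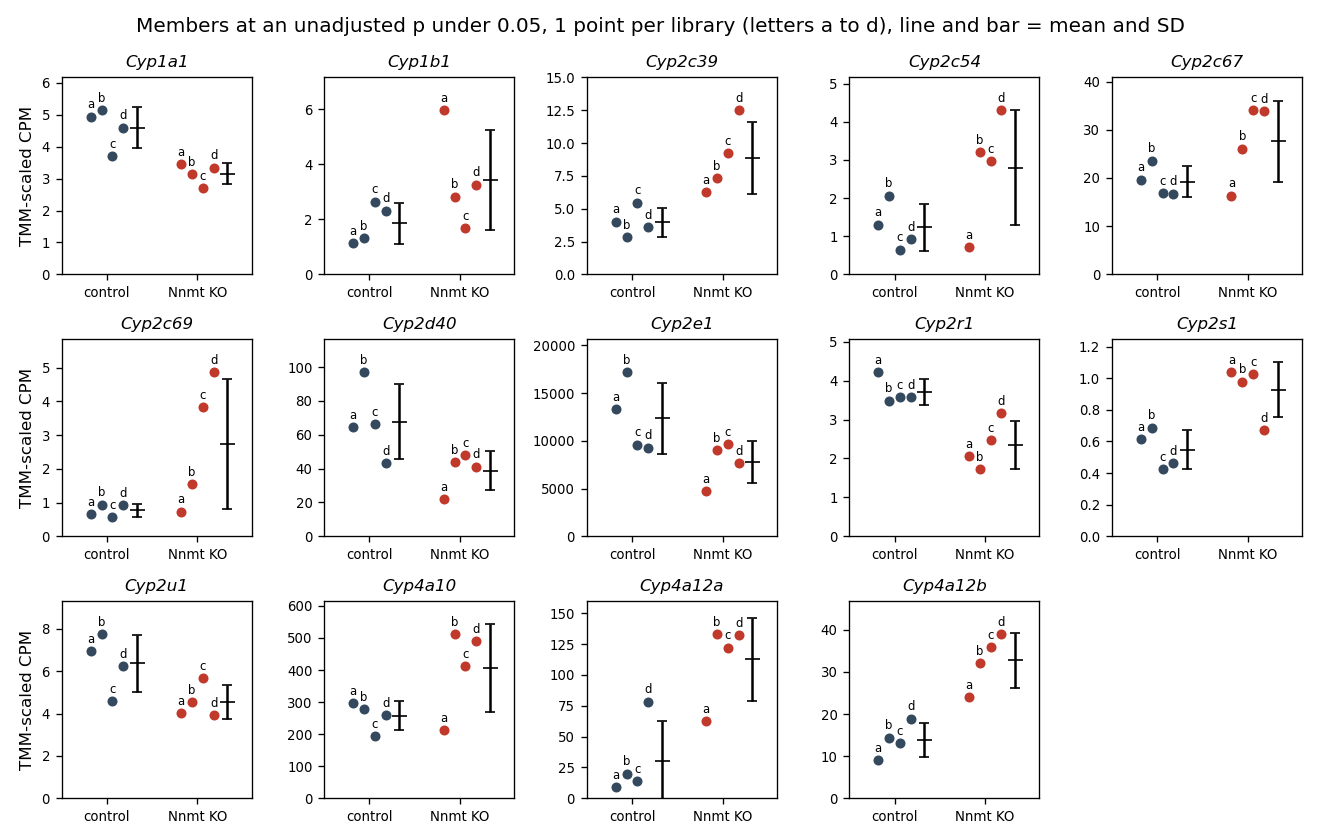
The TMM-scaled CPM of the 14 members at an unadjusted p under 0.05 is drawn per library (letters a to d), with the mean and SD of the 4 libraries beside the points and an axis from 0 in each panel, below which the control bar of Cyp4a12a is not drawn. Libraries of the genotypes do not overlap for Cyp1a1, Cyp2c39, Cyp2r1 and Cyp4a12b, and control library d of Cyp4a12a, at 78.3 CPM, lies above KO library a at 62.5 CPM.

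In the Cyp2c subfamily, whose enzymes make epoxides of arachidonic acid and metabolize steroids and drugs, 11 of 13 genes had a fold change above 0. The median was 0.52, 4 genes were higher at an unadjusted p under 0.05 and 0 were lower by edgeR, beside 5.45% and 7.13% of all tested genes. Without KO library a, Cyp2c29, Cyp2c37, Cyp2c38, Cyp2c40 and Cyp2c50 also passed that threshold. Without KO library c or d, or control library c or d, only Cyp2c39 and Cyp2c69 did. With all 8 libraries none passed adjustment in edgeR, and DESeq2 called 2 (Cyp2c39 and Cyp2c69), beside 3.32% of all genes. KO library a had the lowest KO value for all 13. Cyp2c39 (ENSMUSG00000025003, chromosome 19, 39510862 to 39568529, plus strand), known as a retinoic acid hydroxylase, was at 6.27, 7.32, 9.24 and 12.5 CPM in KO libraries a to d and 4.02, 2.83, 5.46 and 3.58 CPM in control libraries a to d. Every KO library was above every control, although KO library a and control library c nearly met. The mean was 8.83 ± 2.74 CPM in Nnmt KO and 3.97 ± 1.11 CPM in control (SD, n = 4 each) and the log2 fold change was 1.15 (SE 0.25, adjusted p = 0.0856 by edgeR and 0.00122 by DESeq2, with 0.00122 to 0.264 over all alternatives).

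Cyp2c69, a scarce transcript, was at 0.733, 1.54, 3.82 and 4.87 CPM in KO libraries a to d and 0.651, 0.937, 0.576 and 0.916 CPM in control libraries a to d. KO libraries c and d were several times above all controls, KO library b was moderately above them, and KO library a was among them. Its log2 fold change of 1.83 (edgeR, SE 0.51, unadjusted p = 0.00400, adjusted p = 0.152) lay between 1.40 and 2.14 with each library left out in turn. The pattern of Cyp2c54 was similar, with 0.711, 3.21, 2.96 and 4.31 CPM in KO libraries and 1.30, 2.06, 0.645 and 0.916 CPM in control libraries. Here KO libraries b, c and d were above all controls and KO library a was below all but control library c (log2 fold change 1.18, unadjusted p = 0.0353 by edgeR). For Cyp2c67 the values were 16.3, 26.1, 34.1 and 33.8 CPM and 19.6, 23.6, 16.8 and 16.7 CPM in the same order. The value of KO library a was again below the controls and the other 3 KO libraries above them (log2 fold change 0.52, unadjusted p = 0.0328 by edgeR, 0.000679 without KO library a, and 0.104, 0.0992, 0.0811 and 0.0828 without KO library c or d or control library c or d).

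Cyp2c29, an abundant Cyp2c gene, ran widely within both genotypes, at 83.4, 293, 464 and 318 CPM in KO libraries and 211, 231, 150.3 and 114 CPM in control libraries. KO library a was the lowest of the 8 and KO libraries b, c and d the highest. EdgeR gave a log2 fold change of 0.72 (SE 0.41, unadjusted p = 0.105), with 1.02 (unadjusted p = 0.00124) without KO library a, 0.39 (unadjusted p = 0.348) without KO library c and 0.55 (unadjusted p = 0.235) without control library d. Summed over the 13 genes, the level was 507, 1298, 1591 and 1490.2 CPM in KO libraries a to d and 1019.6, 1171, 806 and 775 CPM in control libraries a to d. The 3 KO libraries b, c and d were above all controls, and KO library a below them. Cyp2c37, an arachidonic acid hydroxylase gene, was at 51.4, 202, 219 and 216 CPM in KO libraries and 107, 146, 83.5 and 78.5 CPM in control libraries, with KO library a again the lowest and the other 3 the highest (log2 fold change 0.73, unadjusted p = 0.0781, and 1.03 with an adjusted p of 0.0366 without KO library a, by edgeR). The remaining genes above 0 were Cyp2c38 (0.46), Cyp2c40 (0.21), Cyp2c50 (0.64), Cyp2c55 (0.32) and Cyp2c68 (0.12), none at an unadjusted p under 0.05 by edgeR with all 8 libraries. Cyp2c44 and Cyp2c70 were the 2 members below 0, with -0.04 and -0.07. Of the cluster's 10 tested neighbours within 500 kb that are not P450 genes, 1 was higher and 0 were lower by edgeR at an unadjusted p under 0.05, with a median of 0.25. Around the Cyp4a genes on chromosome 4, 1 of 15 such neighbours was higher and 2 were lower, with a median of -0.08. Of all tested genes, 5.45% were higher and 7.13% lower at that threshold.

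Cyp2e1, the pericentral enzyme that oxidizes ethanol, acetone and fatty acids, had a lower mean in Nnmt KO mice, with libraries that overlapped. It was at 4694, 9021, 9652 and 7678 CPM in KO libraries a to d and at 13323, 17199, 9597 and 9298 CPM in control libraries a to d. KO library a had the lowest value and control libraries a and b the highest, while KO libraries b and c met control libraries c and d. The mean was 7761 ± 2204 CPM in Nnmt KO and 12354 ± 3713 CPM in control mice (SD, n = 4 each), 62.8% of control, with a log2 fold change of -0.67 (SE 0.27, unadjusted p = 0.0297, adjusted p = 0.328 by edgeR). Without KO library a it was -0.49 (unadjusted p = 0.0457 by edgeR), and without control library b -0.46 (unadjusted p = 0.101). By the same test it was -0.67 (unadjusted p = 0.0602) without KO library d and -0.62 (unadjusted p = 0.0671) without control library a. Cyp2e1 lies near the end of chromosome 7 (140763739 to 140774987), where other genes were lower too. Of its 26 tested neighbours within 500 kb, 14 were lower and 1 was higher at an unadjusted p under 0.05 by edgeR, with a median log2 fold change of -0.37. Of all tested genes, 7.13% were lower and 5.45% higher at that threshold. Over the stretch from 125 to 150 Mb, 100 of 241 other tested genes were lower and 8 higher at that threshold, with a median of -0.30.

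Cyp2r1, the gene of a vitamin D 25-hydroxylase, also lies on chromosome 7 (114549682 to 114562972). It was at 2.06, 1.72, 2.47 and 3.17 CPM in KO libraries a to d and 4.22, 3.49, 3.57 and 3.57 CPM in control libraries a to d, with every KO library below every control. The log2 fold change was -0.66 (SE 0.21, unadjusted p = 0.0101, adjusted p = 0.222 by edgeR). Among the 175 other tested genes from 100 to 125 Mb the median was -0.23. At an unadjusted p under 0.05, 59 were lower and 4 higher, beside 7.13% and 5.45% of all tested genes. The part of this stretch of chromosome 7 in the values of Cyp2e1 and Cyp2r1 was not tested.

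The 7 Cyp2d genes, on chromosome 15, encode steroid and drug hydroxylases related to human CYP2D6. Of these, 6 had a fold change below 0, with a median of -0.35. By edgeR, 1 of the 7 was lower at an unadjusted p under 0.05, beside 7.13% of all tested genes. Without control library c, Cyp2d10 and Cyp2d11 also passed, as did Cyp2d11 without KO library b and Cyp2d10 without control library d. KO library a had the lowest KO value for all 7, and the median was -0.19 without it and -0.18 without control library b. Cyp2d40 was at 21.9, 43.7, 48.0 and 41.1 CPM in KO libraries a to d and 64.6, 97.0, 66.4 and 43.1 CPM in control libraries a to d. The lowest value was in KO library a and the highest in control library b, and the groups overlapped because control library d lay between KO libraries d and b. Its log2 fold change was -0.81 (SE 0.26, unadjusted p = 0.0107, adjusted p = 0.229 by edgeR), and -0.61 without KO library a. Cyp2d26, the most abundant gene of the subfamily, had 1036, 1808, 1807 and 1618 CPM in KO libraries and 2338, 2598, 1557 and 1484 CPM in control libraries. Apart from KO library a below and control libraries a and b above, its values lay close together, and the log2 fold change of -0.35 had an unadjusted p of 0.164 by edgeR, with -0.19 without KO library a. Cyp2d10, Cyp2d11 and Cyp2d22 were at -0.41, -0.35 and -0.18 on the log2 scale, none at an unadjusted p under 0.05 by edgeR with all 8 libraries. For the male-biased gene Cyp2d9 the log2 fold change was -0.09 (SE 0.25). Cyp2d12 was the member above 0, with 0.38. Among 26 neighbours that are not P450 genes, 6 were lower and 0 were higher at an unadjusted p under 0.05, with a median of -0.16. This threshold was passed by 7.13% and 5.45% of all tested genes.

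A cluster of 10 members on chromosome 7, between 25802475 and 27133660, holds the Cyp2a and Cyp2b genes with Cyp2f2, Cyp2g1 and Cyp2s1. The 4 Cyp2a genes, known for coumarin and steroid hydroxylation, had log2 fold changes from -0.27 to 0.11, and 0 had an unadjusted p under 0.05 by edgeR or DESeq2. Cyp2a4, the most abundant, was at 1427, 1160.0, 1976 and 2315 CPM in KO libraries and 2157, 1803, 1687 and 1150.2 CPM in control libraries. Both genotypes covered nearly the same range, and the log2 fold change was 0.02 (SE 0.24). Of the Cyp2b genes, targets of CAR, Cyp2b9 was at 99.6, 214, 169 and 189.9 CPM and 239, 242, 170.1 and 247 CPM in the same order, and Cyp2b13 at 5.34, 24.9, 32.1 and 37.4 CPM and 23.3, 13.8, 11.9 and 10.5 CPM. Both genes were lowest in KO library a. The other KO libraries were below control libraries a, b and d for Cyp2b9, but above all controls for Cyp2b13. Their log2 fold changes were -0.42 (unadjusted p = 0.0766 by edgeR) and 0.75 (unadjusted p = 0.133). Without KO library a they were -0.24 (unadjusted p = 0.147 by edgeR) and 1.08 (unadjusted p = 0.00111, adjusted p = 0.0776). The difference between the 2 genes was not tested. Cyp2b10, the gene most used as a reading of CAR activity, stayed between 0.541 and 1.76 CPM in all 8 libraries (log2 fold change 0.67, unadjusted p = 0.0736 by edgeR).

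In the same cluster, the periportal gene Cyp2f2 was at 334, 797, 727 and 631 CPM in KO libraries and 1007, 951, 561 and 796 CPM in control libraries, with KO library a lowest, control libraries a and b highest and the others mixed (log2 fold change -0.41, unadjusted p = 0.141 by edgeR, and -0.21 without KO library a). Cyp2g1, best known from olfactory mucosa, was at 1.96 ± 0.736 CPM in Nnmt KO and 3.43 ± 1.62 CPM in control (SD, n = 4 each). Cyp2s1, an AHR-responsive gene of epithelia, was at 1.04, 0.979, 1.03 and 0.669 CPM in KO libraries a to d and 0.615, 0.687, 0.426 and 0.464 CPM in control libraries a to d. KO libraries a, b and c were above all controls and KO library d just below control library b. The log2 fold change was 0.76 (SE 0.31, unadjusted p = 0.0335, adjusted p = 0.341 by edgeR), and 0.70 with an unadjusted p of 0.0714 without KO library a. Of the 36 neighbours of this cluster, 10 were lower and 0 were higher at an unadjusted p under 0.05, with a median of -0.14. This threshold was passed by 7.13% and 5.45% of all tested genes.

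The Cyp2j genes, arachidonic acid epoxygenases, and the single gene Cyp2u1, a fatty acid hydroxylase, complete family 2. Cyp2j5 was at 45.7, 104, 90.8 and 134 CPM in KO libraries and 104, 117, 115 and 113 CPM in control libraries. The controls lay close together. KO libraries a, b and c were below all of them, b only just, and KO library d was above. None of the 3 Cyp2j genes had an unadjusted p under 0.05 by edgeR or DESeq2, with log2 fold changes from -0.26 to 0.18. Cyp2u1 was at 4.01, 4.55, 5.66 and 3.92 CPM in KO libraries a to d and 6.93, 7.75, 4.57 and 6.23 CPM in control libraries a to d. KO library c and control library c crossed, and otherwise KO values were below control values (log2 fold change -0.49, unadjusted p = 0.0288, adjusted p = 0.325 by edgeR, and -0.44 with unadjusted p = 0.0599 without KO library a).

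Family 1 has 3 members. Cyp1a1, the classic AHR target, was at 3.45, 3.13, 2.70 and 3.35 CPM in KO libraries a to d and 4.94, 5.15, 3.70 and 4.60 CPM in control libraries a to d. All KO libraries were below all controls, and KO library a did not stand apart. The mean was 3.16 ± 0.332 CPM in Nnmt KO and 4.60 ± 0.641 CPM in control (SD, n = 4 each), with a log2 fold change of -0.54 (SE 0.17, unadjusted p = 0.00887, adjusted p = 0.211 by edgeR). Cyp1a2, the abundant hepatic enzyme of caffeine metabolism, was at 243, 371, 400.4 and 294 CPM and 432, 447, 304 and 349 CPM in the same order. The genotypes overlapped broadly, and the log2 fold change was -0.23 (unadjusted p = 0.238 by edgeR). Cyp1b1, which in liver is known mainly from stellate cells, was at 5.97, 2.82, 1.68 and 3.26 CPM in KO libraries a to d and 1.13, 1.31, 2.64 and 2.32 CPM in control libraries a to d. The highest value was in KO library a, KO libraries b and d were just above the controls and KO library c was among them (log2 fold change 0.89, unadjusted p = 0.0425 by edgeR). Without KO library a it was 0.48 with an unadjusted p of 0.182 by edgeR. The stellate markers Col1a1 and Col3a1, picked from the 6 on the marker list, were also highest in KO library a, at 106 and 231 CPM against 18.3 to 70.4 and 40.7 to 101 CPM in the other 7 libraries. Neither had an unadjusted p under 0.05 by edgeR, and the other markers of the list are not given library by library. All 6 stellate markers had a fold change above 0. At an unadjusted p under 0.05 by edgeR, 2 of them were higher in Nnmt KO, beside 5.45% of all tested genes. These were Lrat (0.34, unadjusted p = 0.0398 by edgeR) and Reln (0.41, unadjusted p = 0.0407). The mean sum of the 6 markers was 128% of control with all KO libraries and 98.3% without KO library a. The part of stellate cells in the values of Cyp1b1 was not tested.

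**Figure D3:**
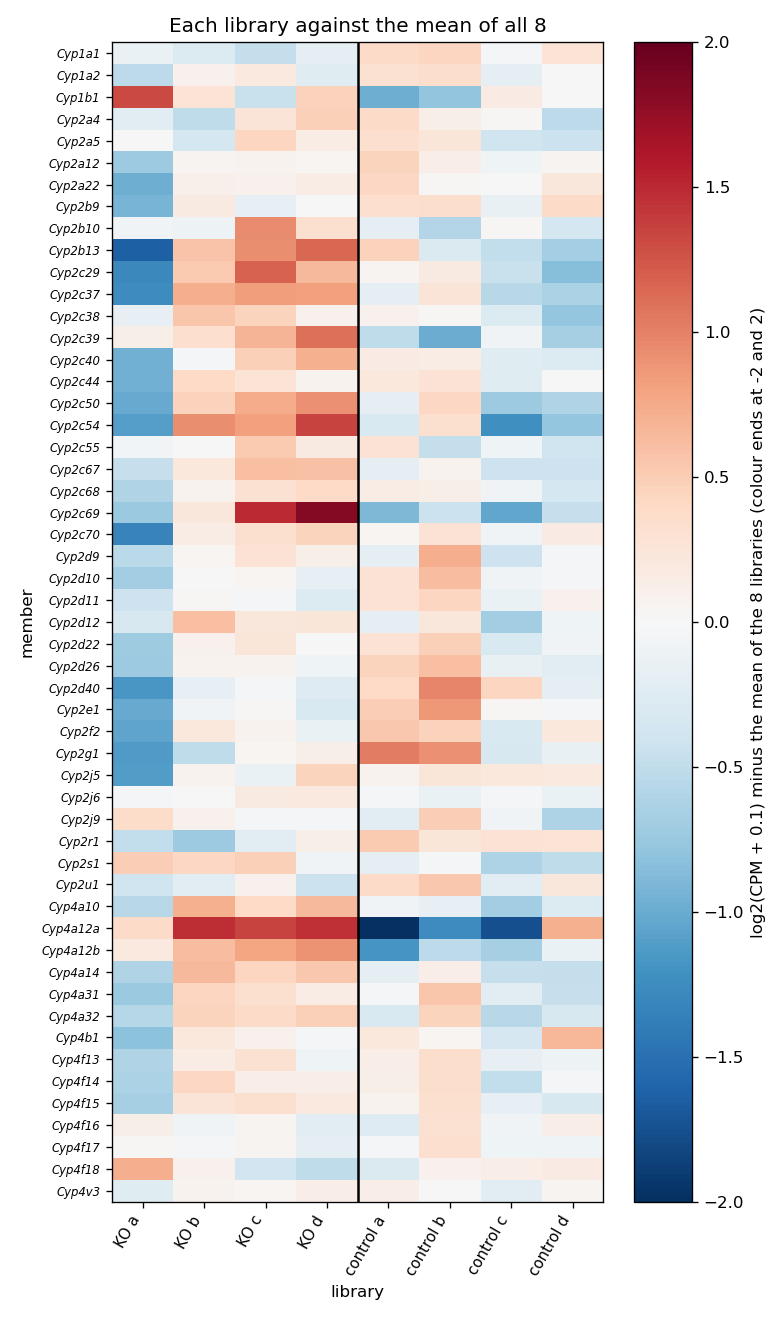
Each row is a member and each column a library, coloured by log2(CPM + 0.1) minus the member's mean over the 8 libraries, red for higher and blue for lower, with the line between genotypes. KO library a is blue for most members, while KO libraries b, c and d are red for most Cyp2c and Cyp4a genes.

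Because several members are close copies, reads may have been assigned to the wrong one. Of all stretches of 150 bases in the GENCODE transcripts of Cyp4a12a and Cyp4a12b, 25.6% and 25.9% also occur in the other gene, whose transcripts are 98.3% identical over 2394 aligned bases. These genes were the 2 with the largest share among the 53 members, followed by Cyp2c40 (20.3%), Cyp2c69 (20.2%) and Cyp2c67 (13.0%), which share sequence mainly with each other. Cyp2a4 and Cyp2a5, at 98.3% identity, differ often enough that only 4.22% of the stretches of Cyp2a4 occur in another gene. For 30 members, among them Cyp1a1, Cyp2c39, Cyp2e1, Cyp2d40, Cyp2r1 and Cyp4a14, no such stretch occurs in another gene. The values of Cyp4a12a, Cyp4a12b, Cyp2c67 and Cyp2c69 are uncertain to that extent, since the handling of shared reads is not given in the sources used here. Added together, Cyp4a12a and Cyp4a12b had 86.4, 165, 158 and 171 CPM in KO libraries a to d and 18.2, 34.4, 27.1 and 97.2 CPM in control libraries a to d, again with control library d above KO library a.

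Promoter windows, from 250 bases before to 50 after the start of transcription, were at hand for 41 members in RefSeq's table for GRCm38.p6. Not in that table were Cyp2c44, Cyp2c54, Cyp2d12, Cyp2d22, Cyp2g1, Cyp2u1, Cyp4a10, Cyp4a12a, Cyp4a12b, Cyp4a14, Cyp4a31 and Cyp4f17. Searched on both strands, the letters TATAAA of a TATA box were found in 22 of the 41 windows (53.7%), against 13.6% of the 32851 windows in the table. In 19 members they lie before the start, at a median of 30 bases. The nuclear receptor motif AGGTCA occurred in 9 of 41 (22.0%, against 16.3% of all windows), the AHR element core GCGTG in 8 (19.5%, against 32.4%) and the STAT element TTCNNNGAA in 2 (4.88%, against 8.30%). A match of letters is a description of the sequence and not a site of binding. Of the 9 members at an unadjusted p under 0.05 that have a window in the table, 4 have TATAAA before their start, Cyp1a1, Cyp2e1, Cyp2c67 and Cyp2d40. The 250 bases before the start of these 4 follow, with the searched letters in capitals. Cyp1a1, which also has GCGTG 54 bases before its start, and Cyp2e1, with TATAAA at 31 bases, come first. RefSeq's start of Cyp1a1 lies 9685 bases from the gene's start in GENCODE, with 80 bases for Cyp2e1, 61 for Cyp2d40 and 9 for Cyp2c67. In Cyp2d40 the letters are those of the other strand.
Cyp1a1, chr9:57697363-57697612, plus strand: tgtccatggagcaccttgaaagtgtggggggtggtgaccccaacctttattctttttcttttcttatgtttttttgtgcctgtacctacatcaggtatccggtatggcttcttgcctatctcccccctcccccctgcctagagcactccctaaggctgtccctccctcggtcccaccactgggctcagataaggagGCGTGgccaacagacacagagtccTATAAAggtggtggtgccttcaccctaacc
Cyp2e1, chr7:140763569-140763818, plus strand: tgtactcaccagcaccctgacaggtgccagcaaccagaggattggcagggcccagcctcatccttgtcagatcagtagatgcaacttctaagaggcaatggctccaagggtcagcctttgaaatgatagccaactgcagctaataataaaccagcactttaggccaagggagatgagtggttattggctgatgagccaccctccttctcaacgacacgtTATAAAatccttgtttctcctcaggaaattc
Cyp2c67, chr19:39649043-39649292, minus strand: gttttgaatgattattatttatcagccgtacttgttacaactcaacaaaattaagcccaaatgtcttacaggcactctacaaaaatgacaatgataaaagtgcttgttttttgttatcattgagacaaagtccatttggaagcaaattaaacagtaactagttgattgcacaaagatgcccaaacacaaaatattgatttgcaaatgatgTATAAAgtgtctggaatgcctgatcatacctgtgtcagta
Cyp2d40, chr15:82764123-82764372, minus strand: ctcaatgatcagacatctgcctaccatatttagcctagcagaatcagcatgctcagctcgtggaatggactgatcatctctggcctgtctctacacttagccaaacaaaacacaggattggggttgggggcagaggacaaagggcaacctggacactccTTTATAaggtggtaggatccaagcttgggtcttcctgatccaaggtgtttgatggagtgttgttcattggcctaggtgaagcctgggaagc

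The neighbours Cyp2b9 and Cyp2b13, whose fold changes had opposite signs, have promoters of which 248 of 250 aligned bases are identical (99.2%), while their transcripts are 91.9% identical. Both hold AGGTCA 138 bases before the start, in capitals here. The pair was chosen after these signs were seen. Neither gene had an unadjusted p under 0.05 by edgeR with all 8 libraries, and their difference was not tested.
Cyp2b9, chr7:26173159-26173408, plus strand: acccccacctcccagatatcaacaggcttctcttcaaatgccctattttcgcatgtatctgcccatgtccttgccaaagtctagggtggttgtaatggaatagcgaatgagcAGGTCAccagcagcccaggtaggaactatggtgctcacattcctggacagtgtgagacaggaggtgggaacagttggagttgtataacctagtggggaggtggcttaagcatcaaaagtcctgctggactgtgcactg
Cyp2b13, chr7:26061245-26061494, plus strand: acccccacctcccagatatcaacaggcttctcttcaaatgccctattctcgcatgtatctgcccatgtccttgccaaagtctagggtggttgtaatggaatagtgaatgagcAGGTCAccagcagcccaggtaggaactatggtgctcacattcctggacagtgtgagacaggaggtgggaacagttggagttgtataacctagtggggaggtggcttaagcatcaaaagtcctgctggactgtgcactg

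The genes known to be induced together with Cyp4a genes through PPARA were more often higher than lower. Of 24 PPARA targets other than P450s, 7 (29.2%) were higher and 1 (4.17%) was lower at an unadjusted p under 0.05 by edgeR, beside 5.45% and 7.13% of all tested genes, and the median log2 fold change was 0.18 beside 0.02. Pdk4, which restrains glucose oxidation, was at 263, 145, 198 and 132 CPM in KO libraries a to d and 54.0, 70.8, 99.2 and 69.8 CPM in control libraries a to d. All KO libraries were above all controls, with KO library a the highest, and the log2 fold change was 1.33 (SE 0.24, adjusted p = 0.0496 by edgeR, under 0.05 in 2 of 12 alternatives). Acot1, an acyl-CoA thioesterase gene, was at 58.7, 79.8, 94.2 and 107 CPM and 27.2, 33.4, 32.8 and 10.9 CPM in the same order, without overlap (log2 fold change 1.70, adjusted p = 0.0528 by edgeR). Ehhadh, of peroxisomal β-oxidation, had a log2 fold change of 0.91, and Acot2, Acot3, Acot4 and Aldh3a2 had 0.81, 1.14, 0.58 and 0.30. The hormone gene Fgf21 went the other way, from 32.6 ± 8.73 CPM in control to 18.1 ± 4.24 CPM in Nnmt KO (SD, n = 4 each, log2 fold change -0.85, unadjusted p = 0.00209 by edgeR).

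Among 22 receptors and factors that act on P450 genes, 1 was higher and 3 were lower by edgeR at an unadjusted p under 0.05 (beside 5.45% and 7.13% of all tested genes), with a median of -0.04. These 4 are also the genes of the list without overlap of libraries, which 3.34% of all tested genes show as higher and 4.81% as lower. Cux2, a factor of female-type expression in mouse liver, was at 2.92, 6.54, 9.55 and 5.20 CPM in KO libraries a to d and 1.36, 1.91, 0.749 and 0.904 CPM in control libraries a to d. Every KO library was above every control, with KO library a nearest to them, and the log2 fold change was 2.30 (SE 0.38, adjusted p = 0.0456 by edgeR). Over the alternatives by edgeR and DESeq2 this adjusted p ran from 8.10e-07 to 0.179 and was under 0.05 in 4 of 12. Cebpa, a factor of hepatocyte identity, was at 153, 187, 166 and 187 CPM and 302, 303, 227 and 241 CPM in the same order, with all KO libraries below all controls (log2 fold change -0.63, adjusted p = 0.0778 by edgeR). Foxa2 and Stat5a were also lower without overlap, with log2 fold changes of -0.52 and -0.50 (unadjusted p = 0.00716 and 0.0122 by edgeR). Of the receptors themselves, chosen after their values were seen, Ppara had a log2 fold change of 0.10, Ahr of 0.10, Nr1i3 (CAR) of -0.24 and Nr1i2 (PXR) of 0.15, each with overlapping libraries.

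For the CAR and PXR targets other than P450s, 2 of 19 genes were higher (Abcc4 with 0.52 and Slco1a4 with 0.50) and 0 were lower by edgeR at an unadjusted p under 0.05, a threshold passed by 5.45% and 7.13% of all tested genes, which is also the background of the next 3 lists. Of the 6 AHR targets other than P450s, 4 were tested, and Nqo1 alone was higher (0.40, unadjusted p = 0.0374 by edgeR), while Ahrr and Aldh3a1 stayed under the count filter. Pericentral genes, from the zone where Cyp2e1 and Cyp1a2 are high, gave 1 higher (Slc1a2, 0.52) and 2 lower (Avpr1a, -1.07, adjusted p = 0.0456 by edgeR and under 0.05 in 4 of 12 alternatives, and Axin2, -0.43) of 15. Libraries did not overlap for 3 lower genes of this list (20%, Avpr1a, Axin2 and Oat), against 4.81% of all tested genes, and for 1 higher gene (6.67%, Slc1a2), against 3.34%. Glul, named as the zone's best-known marker, was at 1534 to 1946 CPM in KO libraries and 1264 to 1877 CPM in control libraries, which overlapped. Periportal genes, from the zone of Cyp2f2, gave 1 higher (Pck1, 0.42) and 1 lower (Ctsc, -0.28) of 15. The medians of these lists were 0.06, 0.19, -0.16 and 0.05, in the order named.

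The partners of the enzymes moved little. Por, the gene of P450 oxidoreductase, was at 803, 1313, 1407 and 1093 CPM in KO libraries and 918, 1452, 899 and 528 CPM in control libraries. The groups overlapped, with control library d lowest (log2 fold change 0.28, unadjusted p = 0.327 by edgeR), and 0 of the 5 electron transfer partners found in the table had an unadjusted p under 0.05 by edgeR. In heme synthesis and breakdown, 0 of 12 genes were higher and 2 were lower at that threshold. These were Uros, of heme synthesis (-0.44), and Hmox2, the constitutive heme oxygenase (-0.39), both with all KO libraries below all controls. Of all tested genes, 7.13% were lower at that threshold and 4.81% lower without overlap. Alas1, the rate-limiting step and named for that reason, had a log2 fold change of 0.20 (unadjusted p = 0.431 by edgeR).

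Members known to differ between the sexes did not follow 1 direction. Of the 7 members known to be higher in female liver, 2 were higher (Cyp2c39 and Cyp2c69) and 0 were lower by edgeR at an unadjusted p under 0.05 (beside 5.45% and 7.13% of all tested genes), with a median of 0.46. Of the 4 known to be higher in male liver, Cyp4a12a and Cyp4a12b were higher, Cyp2u1 was lower and Cyp2d9 passed in neither direction. Xist, the X inactivation RNA of females, was at 0.119 to 1.68 CPM over the 8 libraries, and the Y-linked gene Ddx3y, like Xist chosen after member values were seen, at 12.8 to 27.0 CPM, so that RNA of the Y chromosome was present in every library. Among 20 P450 genes of other families, 4 were higher and 0 lower at that threshold, beside 5.45% and 7.13% of all tested genes. Cyp3a41a and Cyp3a41b, near-identical genes of female-type expression, had log2 fold changes of 2.42 and 2.39, both with an adjusted p of 0.0456 by edgeR (under 0.05 in 4 of 12 alternatives for each) and all KO libraries above all controls. Cyp3a16 was the other gene at an adjusted p under 0.05. It was under 0.05 in 12 of 12 alternatives, with log2 fold changes of 2.64 to 3.01. Cyp17a1 had a log2 fold change of 1.34 (adjusted p = 0.216 by edgeR).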

How the data were processed

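Liver RNA of 4 Nnmt KO and 4 control mice was sequenced in paired ends, and the deposited table holds raw counts for 33212 genes in 8 libraries, which the authors made with HISAT2 and StringTie on mm10, without versions. The strand setting and the gene annotation behind the counts are not stated in the sources used here, so that values of near-identical genes are uncertain. GEO's labels and the study's methods name different library kits. Columns name the genotype and not the mouse, and the letters of libraries follow column order.

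Genes were tested with edgeR 4.0.16 in R 4.3.3 (TMM factors, filterByExpr with a minimum count of 10, quasi-likelihood F test, Benjamini-Hochberg adjustment over all 15291 tested genes). Standard errors are the absolute log2 fold change divided by the square root of the F value of that test. A prior count of 2 was used for the log2 CPM behind the SDs within a genotype. The fit was tested on simulated counts, where it found most but not all of the changed genes. The simulation held no library set apart like KO library a and no reads shared between genes. P values weigh the difference between genotypes against the spread between these mice. Total counts are given per group in the text, and the level that 3 counts stand for is given for all libraries together. CPM were scaled by the TMM factors, and TPM were made from the counts and the exon lengths of GENCODE M21 (GRCm38), which also gave positions and transcripts. Promoter windows are from RefSeq (GRCm38.p6), in which 41 of the 53 members were matched by symbol.

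Members were chosen by symbol and level, and members and gene lists were chosen with earlier results of these data known. The lists, drawn up from general knowledge, are cell type markers, electron transfer partners, heme metabolism, regulators, AHR, CAR and PXR, and PPARA targets, zonal genes, sex-biased members and P450 genes of other families. The plan named Nnmt, members and list genes at an unadjusted p under 0.05, and the most abundant member of each subfamily. It also named the members with the largest absolute log2 fold change. Further members and known markers were named beyond that plan, and not all genes chosen after their values were seen are marked so. Alternatives tried were DESeq2 1.42.0, other scaling, no filter, other floors for membership and each library left out in turn. The 14 matching genes below the floor (Cyp2b19, Cyp2b23, Cyp2c65, Cyp2c66, Cyp2d34, Cyp2j8, Cyp2j11, Cyp2j12, Cyp2j13, Cyp2t4, Cyp2w1, Cyp4f39, Cyp4f40, Cyp4x1) were left out. Tables were handled in Python 3.11.15 with pandas 2.3.3 and numpy 2.4.6.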

Additional observations from a re-analysis of the deposited data

Results flagged for a closer look

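A gap rule for a single value apart from the other 3 of its genotype picked out 8 of 74 groups of 4 looked at, where chance alone picks about 1 in 20, or 3.7. All values were kept. In KO library a the TMM factor was 1.21, with 0.952 to 0.977 in its group, Cyp4a12a, a male-biased fatty acid hydroxylase gene, had 62.5 CPM, with 122 to 133 CPM in its group, and Cyp4f15 was at 55.6 CPM, with 101 to 110.2 CPM in its group. In control library d, Cyp4a12a was at 78.3 CPM, with 9.10 to 19.9 CPM in its group. In control library c, Cyp2b9 was at 170.1 CPM, with 239 to 247 CPM in its group, and the sum of the 3 Cyp2b genes, most of which is Cyp2b9, was 183 CPM, with 257 to 263 CPM in its group. Cyp2r1 in control library a was at 4.22 CPM, with 3.49 to 3.57 CPM in its group, and Cyp2s1 in KO library d at 0.669 CPM, with 0.979 to 1.04 CPM in its group.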

How the results depend on the processing

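The number of members at an adjusted p under 0.05, 1 with edgeR and TMM (Cyp4a12b), was 0 with DESeq2's size factors in edgeR, 0 with library size only, 0 without the filter on low counts and 3 with DESeq2's Wald test (Cyp2c39, Cyp2c69 and Cyp4a12b). With each library left out in turn it ran from 0 to 5, the highest without KO library a and 0 without KO libraries b, c or d or control libraries a, b or c. At an unadjusted p under 0.05 the number was 15, 19, 14 and 18 in the same order, beside 14 with edgeR and TMM, where 12.7%, 9.40%, 10.6% and 14.2% of all genes were called, beside 12.6%. It ran from 9 to 20 with each library left out, lowest without KO library d and highest without KO library a. The cause of the weight of these libraries was not tested.

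The median log2 fold change of members, 0.05, lay from -0.01 to 0.18 with each library left out and was 0.12 with library size only. For Nnmt the log2 fold change was -1.28 (adjusted p = 0.123 by edgeR), -1.28 with DESeq2 (adjusted p = 0.00467), and -1.52 to -0.94 with each library left out.

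The sign of 15 members near 0 turned when some library was left out (Cyp2a4, Cyp2a5, Cyp2c40, Cyp2c44, Cyp2c68, Cyp2c70, Cyp2d9, Cyp4a31, Cyp4f13, Cyp4f14, Cyp4f15, Cyp4f16, Cyp4f17, Cyp4f18 and Cyp4v3). For the 3 of these that were followed through all alternatives, the range of the log2 fold change was -0.16 to 0.17 for Cyp2a4, -0.011 to 0.26 for Cyp4f15 and -0.060 to 0.078 for Cyp4v3, beside 0.02, 0.08 and 0.00 with all 8 libraries. No paired analysis was possible because the columns of the count table carry no replicate number, although the labels give the numbers 4 and 5 to a mouse of each genotype.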

Other observations

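The pseudogene Cyp2d37-ps, which lies in the Cyp2d cluster on chromosome 15 and was chosen after its values were seen, was at 1.91, 2.16, 1.36 and 1.37 CPM in KO libraries a to d and 4.70, 3.82, 4.17 and 2.70 CPM in control libraries a to d. All KO libraries were below all controls, and the log2 fold change was -1.18 (edgeR, SE 0.24, adjusted p = 0.0712, and 0.000559 with DESeq2). The other pseudogene with a symbol of these families, Cyp2j7-ps, had 0 counts in every library.

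Cd3g, a T cell gene on the lymphocyte list, was at 0.766, 1.19, 0.860 and 1.05 CPM in KO libraries and 0.386, 0.290, 0.369 and 0.666 CPM in control libraries (log2 fold change 1.17, unadjusted p = 0.00709 by edgeR). The 4 lymphocyte markers added up to 2.48, 3.06, 2.47 and 2.65 CPM in KO libraries and 1.75, 1.54, 1.31 and 2.03 CPM in control libraries, with every KO sum above every control sum. Endothelial markers (148, 176, 166 and 158 CPM against 146, 190.0, 127 and 229 CPM), neutrophil markers (12.3, 6.33, 4.11 and 5.91 against 4.68, 6.76, 5.71 and 12.0 CPM) and erythroid markers (511, 399, 528 and 445 against 549.7, 693, 439 and 416 CPM) overlapped. Epcam, a cholangiocyte marker, had a log2 fold change of 0.80 (unadjusted p = 0.0243 by edgeR).

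Gpnmb, a gene of lipid-laden macrophages, was highest in control library d at 584 CPM and in KO library a at 485 CPM, the 2 libraries in which Cyp4a12a stood apart from its group. Whether these go together was not tested.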
